A study of Mus musculus with 8 samples.

Results

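The aryl hydrocarbon receptor and its targets were followed here as 7 genes: the receptor Ahr, its partner Arnt, the feedback genes Ahrr and Tiparp, and the xenobiotic-oxidising cytochrome P450 genes Cyp1a1, Cyp1a2 and Cyp1b1. The members were the probes whose gene symbol was one of these 7, out of 18217 symbols on the array, and 9 probes matched them. The genes were picked from values on these same 8 arrays, so their levels and differences are given as a description and no p-value is attached to them. Ahr was highest in Keap1 null tumours, 9.92-fold above WT tumours, and its targets did not follow the same order: Cyp1b1 was 6.58-fold below WT tumours in Keap1 null tumours, and Cyp1a1 was not well above background in any tumour. In the dish, Ahr, Ahrr, Cyp1a1 and Cyp1b1 were all higher in Keap1 null than in WT cells, by 1.77-fold to 3.39-fold.

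The receptor AHR is a ligand-activated transcription factor of the bHLH-PAS family, held in the cytosol by a chaperone complex with HSP90 and p23 until a planar aromatic compound or a tryptophan metabolite binds it. It then enters the nucleus, pairs with ARNT and binds DNA elements with the core GCGTG, which switches on Cyp1a1, Cyp1a2, Cyp1b1, Tiparp and Ahrr. AHRR competes with AHR for ARNT and DNA, and TIPARP attaches ADP-ribose to AHR; both dampen the pathway. KEAP1 marks the transcription factor NRF2 for destruction, and NRF2 and AHR share several target genes, among them Nqo1.

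The samples were mouse embryonic fibroblasts (MEFs) of the WT TR and Keap1–/– TR lines, grown either as tumours in nu/nu mice, which have few T cells, or in a culture dish. The 4 groups were Keap1 null allograft, WT allograft, Keap1 null dish and WT dish, with 2 one-colour Agilent arrays each. For the tumours, 3000000 Keap1 null or 10000000 WT cells were injected and tumours of 100 to 150 mm3 were taken. TR is not spelled out in the labels, each genotype is 1 line, so that genotype and line cannot be told apart, and the labels do not say whether replicates were separate cultures or animals, so the errors cover only the spread between these arrays. A tumour holds host cells beside the MEFs, and in such bulk RNA fewer cells of a type and less RNA per cell cannot be told apart.

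Values are log2 intensities relative to each array's 75th percentile, so 0 is the 75th percentile and each unit is a doubling. A difference was called where limma's moderated test gave an adjusted p below 0.05 over 22922 tested targets. The gene lists used below were chosen with earlier results of these data known, so their calls and adjusted p-values are a description too. Other scalings are given where they changed a value or a call, and so is normexp, another background correction, which adds an offset of 50 to each signal and so shrinks the differences of dim genes by construction. Signal well above background was seen for 69.8% to 74.7% of probes on tumour arrays, against 60.6% to 64.5% on dish arrays. Each of the 2 slides held 1 array of every group. Keap1 itself read 1.00 and 0.92 in Keap1 null allografts and 2.85 and 2.46 in WT allografts; in the dish it read 2.37 and 2.22 in Keap1 null cells and 3.32 and 2.99 in WT cells. It was thus lower in the Keap1 null line in both settings and still well above background there; where the probe lies relative to the deletion was not analysed here. All 10 fibroblast markers were well above background in each group except Lum in WT dish. Macrophage and endothelial markers were high in tumours only: the summed level of 7 measured macrophage markers, in multiples of the array's 75th percentile, was 10.3 to 10.8 in Keap1 null allografts, 59.4 to 65.8 in WT allografts, 0.13 to 0.162 in Keap1 null dish and 0.101 to 0.116 in WT dish. For 8 endothelial markers it was 10.8 to 11.7 in Keap1 null allografts, 12.5 to 13.1 in WT allografts, 0.22 to 0.222 in Keap1 null dish and 0.194 to 0.212 in WT dish. All of these macrophage and endothelial markers were well above background in both kinds of tumour, while in both dish groups Adgre1, C1qc, Ptprc, Emcn, Pecam1, Tek and Tie1 were not. Lymphocyte markers summed to 0.137 to 0.264 in Keap1 null allografts and 0.856 to 1.19 in WT allografts, and keratinocyte markers to 0.15 to 1.36 in Keap1 null allografts and 0.0945 to 0.123 in WT allografts. Pericyte and smooth muscle markers summed to 7.99 to 8.65 in Keap1 null allografts and 6.86 to 7.98 in WT allografts. The range for adipocyte markers was 12.6 to 16.0 in Keap1 null allografts and 5.36 to 17.2 in WT allografts, and for red cell markers 17.9 to 31.6 in Keap1 null allografts and 13.2 to 20.7 in WT allografts. The highest of these 5 sums on any dish array was 0.675, for adipocyte markers.

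Promoter windows from RefSeq (GRCm38.p6), from 250 bases before to 50 bases after the start, matched 6 of the 7 members, all but Ahr. The windows of the 3 targets that were higher together in Keap1 null dish cells, and of Tiparp, which differed little there, are shown with the AHR core in capitals, as GCGTG or, on the other strand, CACGC. The windows lie at chr13:74292282-74292581 on the minus strand for Ahrr, chr9:57697363-57697662 on the plus strand for Cyp1a1, chr17:79715012-79715311 on the minus strand for Cyp1b1 and chr3:65528197-65528496 on the plus strand for Tiparp.
Ahrr: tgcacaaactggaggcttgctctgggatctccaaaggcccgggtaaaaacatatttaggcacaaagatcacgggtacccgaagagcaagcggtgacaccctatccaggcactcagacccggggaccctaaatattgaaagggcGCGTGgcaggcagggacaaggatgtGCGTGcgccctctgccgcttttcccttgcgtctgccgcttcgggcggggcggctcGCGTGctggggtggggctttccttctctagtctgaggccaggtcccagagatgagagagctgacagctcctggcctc
Cyp1a1: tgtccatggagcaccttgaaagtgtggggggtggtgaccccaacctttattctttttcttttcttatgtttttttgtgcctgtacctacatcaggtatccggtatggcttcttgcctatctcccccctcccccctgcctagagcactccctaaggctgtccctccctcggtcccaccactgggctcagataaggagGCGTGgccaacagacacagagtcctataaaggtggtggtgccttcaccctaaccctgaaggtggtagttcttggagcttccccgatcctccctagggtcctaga
Cyp1b1: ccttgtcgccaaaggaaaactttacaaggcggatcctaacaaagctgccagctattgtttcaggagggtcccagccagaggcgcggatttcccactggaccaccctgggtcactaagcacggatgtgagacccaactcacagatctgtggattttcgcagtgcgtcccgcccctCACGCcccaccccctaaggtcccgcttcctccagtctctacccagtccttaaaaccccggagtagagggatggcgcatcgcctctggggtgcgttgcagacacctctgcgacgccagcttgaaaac
Tiparp: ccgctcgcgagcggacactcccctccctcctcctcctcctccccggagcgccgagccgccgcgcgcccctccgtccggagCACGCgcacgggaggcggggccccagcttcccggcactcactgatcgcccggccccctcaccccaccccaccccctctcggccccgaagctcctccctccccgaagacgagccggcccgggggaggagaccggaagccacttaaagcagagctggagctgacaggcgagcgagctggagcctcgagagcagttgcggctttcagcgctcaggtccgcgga
The core stood 3 times in the Ahrr window, the nearest 2 beginning 82 and 27 bases before the start, and once each in the windows of Cyp1a1 (54 bases before), Cyp1b1 (76 before), Tiparp (170 before) and Arnt (29 before); Cyp1a2 had none. Among 32851 windows of this length in the same table, 32.4% held at least 1 core on either strand and 3.9% held at least 3. The longer form TNGCGTG, which contains the core, was found in the Ahrr window and in 5.1% of all windows. The hypoxia core ACGTG was in none of the 6 windows and in 19.6% of all. TGACNNNGC, the antioxidant element that NRF2 uses, was found 2 times in the Arnt window, in none of the other 5 and in 12.4% of all windows. These are matches of letters and say nothing about binding; distal enhancers, where the known AHR elements of mouse Cyp1a1 lie, were not searched.

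**Figure D1:**
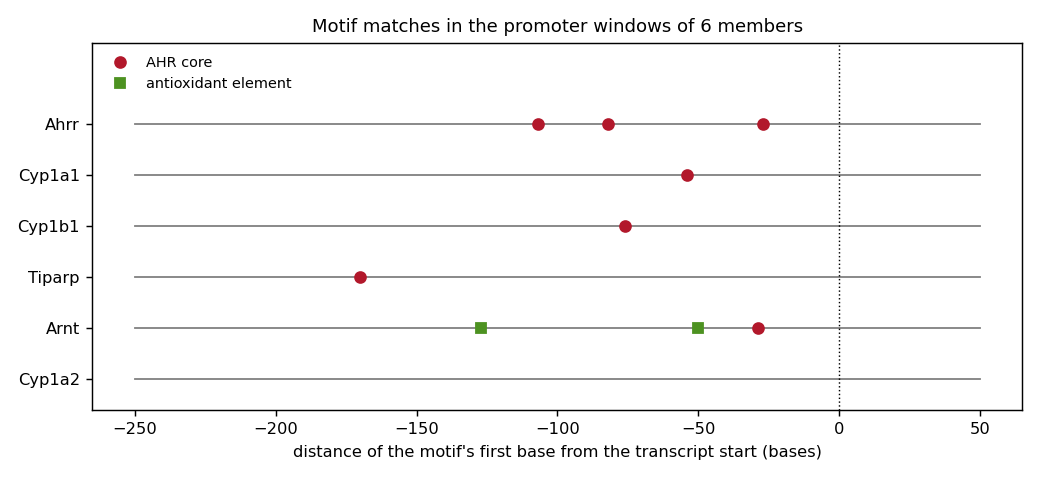
Positions of the AHR core (circles) and the antioxidant element (squares) in the promoter windows of 6 members; the horizontal axis is the distance in bases of the motif's first base from the transcript start (dotted line). Ahrr holds 3 cores, Cyp1a1, Cyp1b1, Tiparp and Arnt 1 each, and Cyp1a2 none.

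Ahr, the receptor, was measured by 10 spots of 1 probe per array. It read 3.31 and 3.27 in Keap1 null allografts, -0.01 and -0.03 in WT allografts, 0.39 and 0.41 in Keap1 null dish cells and -0.45 and -0.39 in WT dish cells. The Keap1 null tumours stood far above the other 3 groups, no 2 groups overlapped, and the order was Keap1 null allograft, Keap1 null dish, WT allograft, WT dish. On the scanner's linear scale the same spots read 14545 and 11256 in Keap1 null allografts, 1505 and 1512 in WT allografts, 1745 and 1633 in Keap1 null dish cells and 791 and 965 in WT dish cells. Ahr was 9.92-fold higher in Keap1 null than in WT tumours (log2 difference 3.31 ± 0.08, SE) and 1.77-fold higher in Keap1 null than in WT dish cells (0.82 ± 0.08). Tumours exceeded the dish by 7.42-fold in the Keap1 null line (2.89 ± 0.08) and by 1.32-fold in the WT line (0.40 ± 0.08), and the difference between these 2 growth effects was 2.49 ± 0.11. With median scaling the Keap1 null growth value was 4.07-fold. The 1.32-fold value is the only member difference among those called whose sign depended on the scaling: it was -0.62 when arrays were scaled to their medians, a scaling that moves the median of all tested targets in this comparison to -1.04. Spots of the probe on the same array scattered with an SD of 0.023 to 0.102. The macrophage and endothelial markers given above were higher in tumours than in the dish in both lines. Between tumours their sums were lower in Keap1 null than in WT, while Ahr was higher. Their part in the Ahr differences was not tested.

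**Figure D2:**
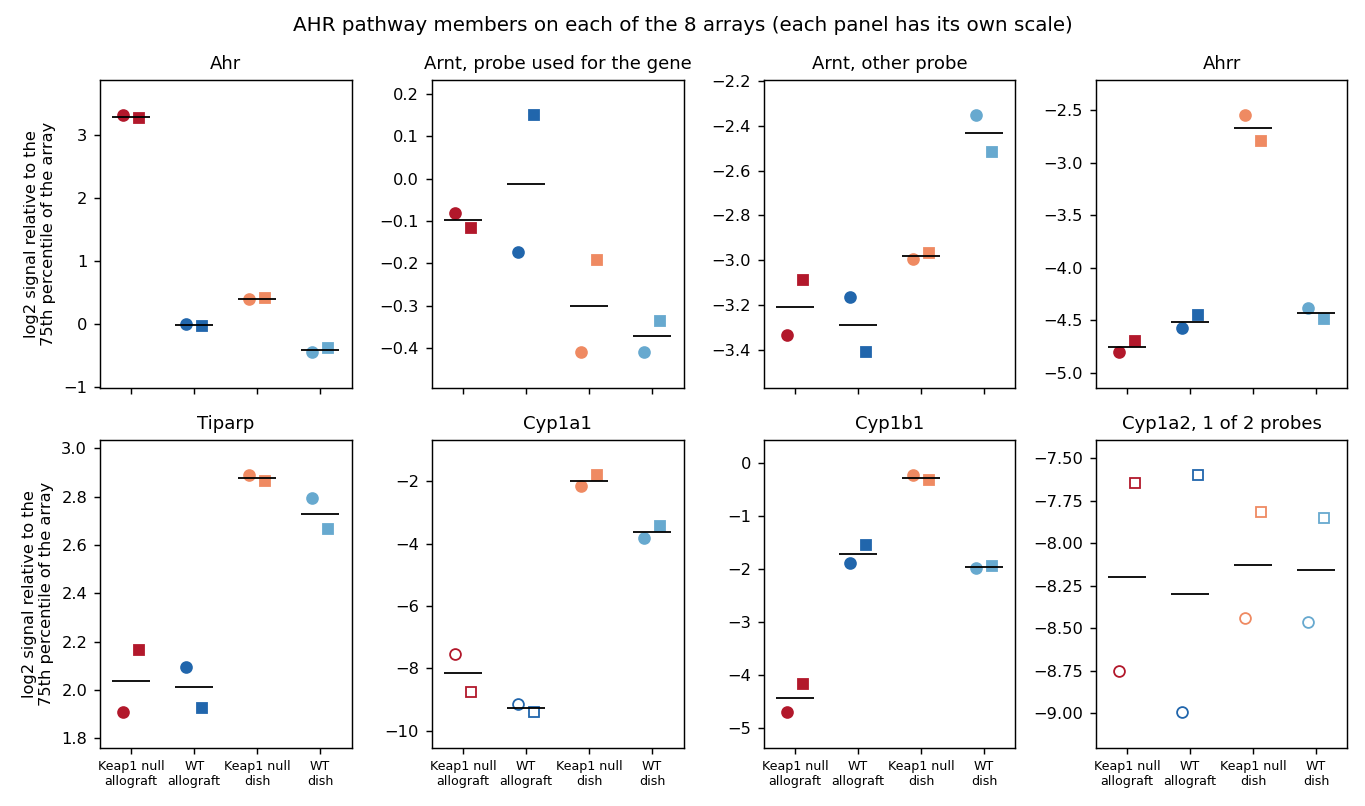
log2 signal of each member relative to the array's 75th percentile on the 8 arrays, by group; circles are replicate 1 (slide 1), squares replicate 2 (slide 2), open symbols were not well above background and lines are group means. Ahr stands highest in Keap1 null allografts, Ahrr, Cyp1a1 and Cyp1b1 in Keap1 null dish cells, and Tiparp in the dish groups of both lines.

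Arnt, the dimerisation partner that AHR shares with the hypoxia factors, was matched by 2 probes. The probe used for the gene read -0.08 and -0.12 in Keap1 null allografts, -0.17 and 0.15 in WT allografts, -0.41 and -0.19 in Keap1 null dish cells and -0.41 and -0.34 in WT dish cells. The genotypes overlapped in both settings, and tumour arrays lay above dish arrays of the same line by 0.20 ± 0.14 in Keap1 null and 0.36 ± 0.14 in WT. Neither growth difference reached the calling threshold. The WT value was called at 0.36 with the slide as a block, with normexp and on probes well above background on all 8 arrays. It was called at 0.75 without scaling, but at -0.66 with median scaling and -0.25 with the mean over probes. Median scaling also brought a call for the Keap1 null value, at -0.66. A second Arnt probe read -3.33 and -3.09 in Keap1 null allografts, -3.17 and -3.41 in WT allografts, -2.99 and -2.97 in Keap1 null dish cells and -2.35 and -2.52 in WT dish cells. It disagreed in direction: it was lower in tumours than in the dish, by -0.23 ± 0.14 in Keap1 null and -0.85 ± 0.14 in WT. By this probe the genotypes did not overlap in the dish, where Keap1 null was lower than WT (-0.55 ± 0.14). No direction is therefore given for Arnt.

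Ahrr, the repressor, stood apart in Keap1 null dish cells alone. It read -4.80 and -4.70 in Keap1 null allografts, -4.57 and -4.45 in WT allografts, -2.55 and -2.79 in Keap1 null dish cells and -4.38 and -4.48 in WT dish cells, well above background on all 8 arrays. The Keap1 null dish arrays lay above all others, and the other 6 arrays lay between -4.80 and -4.38. In the dish Ahrr was 3.39-fold higher in Keap1 null than in WT cells (1.76 ± 0.12), and in the Keap1 null line it was 4.23-fold lower in tumours than in the dish (-2.08 ± 0.12). Between the tumours the genotypes differed by -0.24 ± 0.12, and in the WT line tumours and dish overlapped (-0.08 ± 0.12). The WT growth value was -1.10 with median scaling and -1.13 with quantile normalisation, and then passed the threshold. With normexp the dish difference was 2.05-fold and the Keap1 null growth difference 2.38-fold; the growth difference was 7.71-fold with median scaling and 7.03-fold with quantile normalisation.

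Tiparp, the ADP-ribosyltransferase that acts on AHR, was lower in tumours than in the dish in both lines. It read 1.91 and 2.17 in Keap1 null allografts, 2.10 and 1.93 in WT allografts, 2.89 and 2.87 in Keap1 null dish cells and 2.79 and 2.67 in WT dish cells. Every dish array lay above every tumour array. Tiparp was 1.79-fold lower in tumours than in the dish in the Keap1 null line (-0.84 ± 0.12) and 1.64-fold lower in the WT line (-0.72 ± 0.12). With quantile normalisation or without scaling, the WT value shrank to -0.34 and -0.33 and no longer passed. Median scaling made the growth differences 3.26-fold in Keap1 null and 3.34-fold in WT. Keap1 null and WT differed by 0.03 ± 0.12 in tumours and 0.15 ± 0.12 in the dish.

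Cyp1a1, the P450 most used as a readout of AHR activity, was measurable in the dish and not in tumours. Its log2 values were -7.53 and -8.76 in Keap1 null allografts and -9.16 and -9.41 in WT allografts, none well above background, against -2.16 and -1.81 in Keap1 null dish cells and -3.81 and -3.43 in WT dish cells. The linear intensities were 7.92 and 2.69 in Keap1 null allografts and 2.65 and 2.28 in WT allografts, against 298 and 352 in Keap1 null dish and 77.4 and 118 in WT dish. A fold change against a group not well above background is given as a bound, with the dim group set, on each array, to the lowest signal well above background or its own value if higher. By this bound Cyp1a1 was at least 27.0-fold lower in Keap1 null tumours than in Keap1 null dish cells and at least 12.4-fold lower in WT tumours than in WT dish cells. These bounds hold for the processed signals only: with normexp the differences were 5.84-fold in Keap1 null and 3.38-fold in WT, still called. In the dish it was 3.11-fold higher in Keap1 null than in WT cells (1.63 ± 0.40); the dish groups did not overlap, and the difference was 1.65 on slide 1 and 1.62 on slide 2. Its spread was taken in part from the dim tumour arrays, and the call was lost in 8 of 15 other settings, among them the 4 that left out a dish array and the 2 that left out a WT tumour array. No fold is given between the tumours.

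Cyp1b1, which oxidises oestrogens and polycyclic hydrocarbons and is the CYP1 enzyme typical of fibroblasts, had the widest range of the members that were measurable on all arrays. It read -4.71 and -4.17 in Keap1 null allografts, -1.89 and -1.55 in WT allografts, -0.23 and -0.32 in Keap1 null dish cells and -1.98 and -1.95 in WT dish cells. Keap1 null cells were thus highest of the 4 groups in the dish and lowest as tumours, with WT between. In the dish Cyp1b1 was 3.23-fold higher in Keap1 null than in WT (1.69 ± 0.20), and in Keap1 null tumours it was 6.58-fold below WT tumours (-2.72 ± 0.20). The Keap1 null line held 18.0-fold less in tumours than in the dish (-4.17 ± 0.20), against 0.24 ± 0.20 in the WT line, and the growth effects differed by -4.41 ± 0.29. The WT growth value was -0.78 with median scaling and 0.63 without scaling, and passed the threshold in both. With normexp Cyp1b1 was 3.37-fold lower between tumours and 8.52-fold lower in tumours than in the dish in Keap1 null, both still called; with median scaling the Keap1 null growth difference was 32.7-fold. Macrophage markers were lower in Keap1 null than in WT tumours too, as given above; their part in the tumour difference was not tested.

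Cyp1a2, the CYP1 enzyme typical of liver, did not rise well above background on a single array. Its 2 probes read between -9.23 and -7.60, so it was not tested and has no level here.

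**Figure D3:**
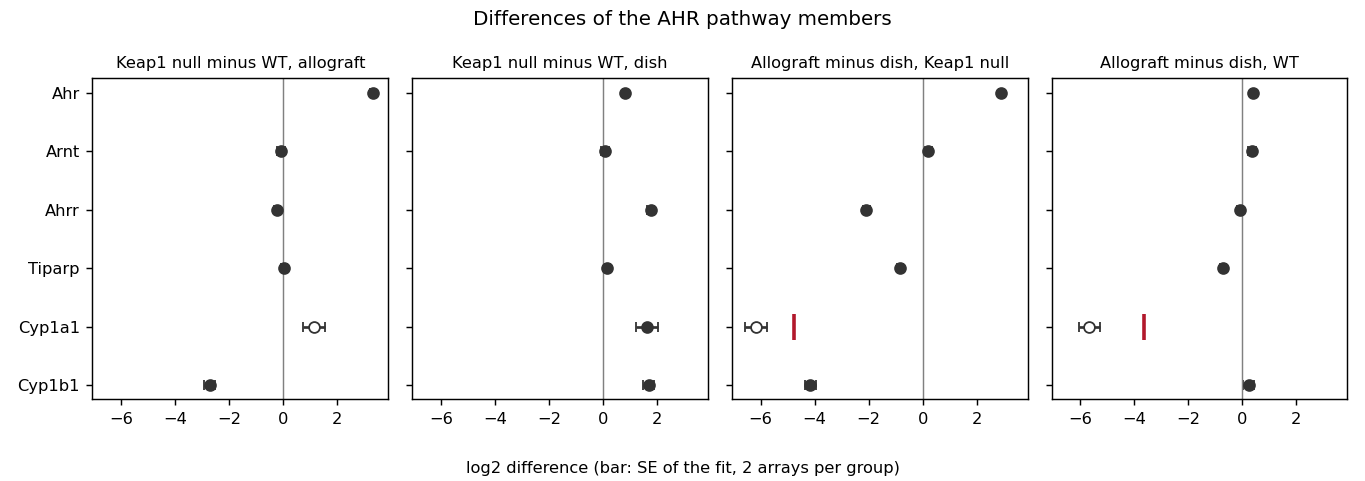
log2 differences (horizontal axis) of 6 members in 4 comparisons, with the SE of the fit as bars; open circles involve a group not well above background and red ticks mark the bound of the Cyp1a1 difference. Ahr lies at 3.31 between tumours of the 2 genotypes and 2.89 between tumours and dish in Keap1 null; Cyp1b1 lies at -2.72 and -4.17 in the same 2 comparisons.

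The members are 6 of the 22922 tested targets. Between Keap1 null and WT dish cells 4 of the 6 were called, all higher, against 21.1% of all targets called, 11.4% higher and 9.78% lower. Between Keap1 null and WT tumours 2 were called, Ahr higher and Cyp1b1 lower, where 41.8% of all targets were (20.5% higher and 21.3% lower). Between tumour and dish 5 were called in the Keap1 null line, 1 higher and 4 lower, where 64.9% of all targets were (35.8% higher and 29.1% lower). In the WT line 3 were called between tumour and dish, 1 higher and 2 lower, where 68.1% of all targets were (35.8% higher and 32.2% lower). The growth effect differed between the lines for 3 members, Ahr, Ahrr and Cyp1b1, and for 32.9% of all targets (15.8% higher and 17.0% lower). The arrays of the 2 groups did not overlap for 4 of the 6 members between the tumours of the 2 genotypes and for 5 in the dish, against 70.3% and 58.7% of all targets, and for 6 in Keap1 null and 5 in WT between tumour and dish, against 81.9% and 83.4%. Because these values chose the members, nothing is read from the counts. The median log2 difference of the 6 was 1.23 in the dish and -0.03 between tumours for Keap1 null against WT, beside -0.05 and 0.00 for all targets. For tumours against dish it was -1.46 in Keap1 null and 0.08 in WT, beside 0.03 and -0.02. These comparisons share arrays in pairs, so that the Keap1 null dish arrays, for example, enter both the dish comparison and the Keap1 null growth comparison.

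Of 24 member differences (6 members in 4 comparisons), 20 had the same sign on both slides. The 4 of opposite sign lay between -0.27 and 0.24 on each slide and belonged to Arnt, Ahrr and Tiparp. Some sizes differed between the slides. The Keap1 null growth difference was -5.37 on slide 1 and -6.95 on slide 2 for Cyp1a1, and -4.48 and -3.85 for Cyp1b1. The share of all targets with the same sign is not given, and these values chose the members, so nothing is read from the count.

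**Figure D4:**
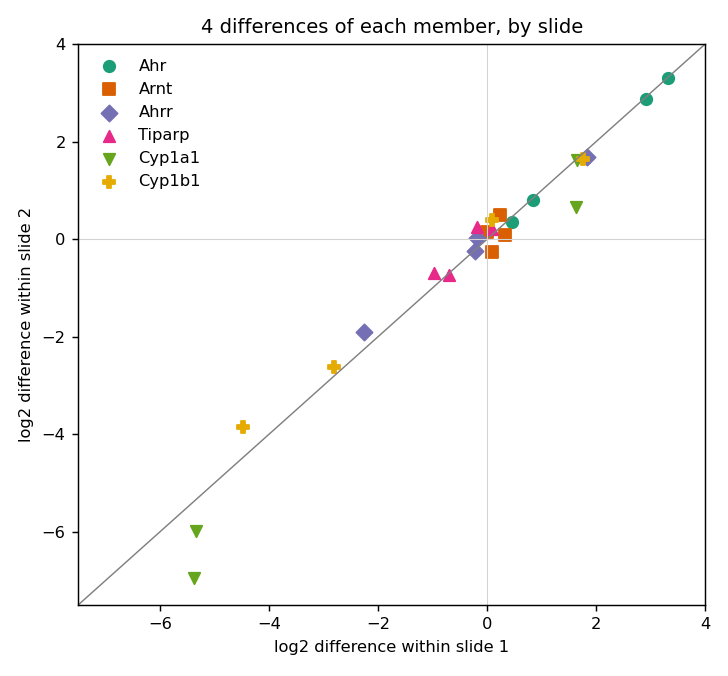
log2 difference of each member computed within slide 1 (horizontal axis) and within slide 2 (vertical axis) in 4 comparisons; the diagonal is equality. The 2 lowest points, of Cyp1a1, rest on tumour arrays not well above background.

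The other genes of the AHR battery are genes beyond the members that have been reported to respond to AHR in mouse tissues. Of 9 listed, 8 were on the array and tested. In Keap1 null against WT dish cells 5 rose and 1 fell, with a median log2 difference of 2.67 (2.23 with bounded genes at their bounds). In Keap1 null against WT tumours 7 rose and 1 fell, with a median of 3.96. Over all targets the medians were -0.05 and 0.00. In the dish 11.4% of all targets rose and 9.78% fell, and between tumours 20.5% rose and 21.3% fell. Without scaling 5 rose and 1 fell between tumours, and 5 rose and none fell in the dish. Nqo1, a quinone reductase, read 4.84 and 4.66 in Keap1 null tumours and -1.07 and -1.0 in WT tumours, a 55.1-fold rise (5.78 ± 0.10, limma adjusted p = 5.03e-06), and rose 12.2-fold in the dish (3.60 ± 0.10, adjusted p = 2.27e-05). The alpha glutathione transferase Gsta1 rose 875-fold between tumours and 71.9-fold in the dish. Gsta2 rose at least 609-fold between tumours, where it was not well above background in WT, and 114-fold in the dish, where 1 of 2 WT arrays was well above background. Cross-hybridisation between these close paralogues was not tested. The aldehyde dehydrogenase Aldh3a1 rose at least 65.5-fold and at least 6.60-fold; it was not well above background in WT. With normexp these 3 genes kept their calls and the folds were lower, below the bounds where bounds are given: 172-fold and 30.1-fold for Gsta1, 84.7-fold and 19.1-fold for Gsta2 and 9.87-fold and 1.94-fold for Aldh3a1, between tumours and in the dish. Quantile normalisation gave 47.6-fold for Gsta1 and 75.4-fold for Gsta2 in the dish. The glucuronosyltransferase Ugt1a6b rose 4.37-fold between tumours and 3.35-fold in the dish. The selenium-binding protein gene Selenbp1 fell 2.78-fold between tumours and 1.69-fold in the dish. Nfe2l2, which encodes NRF2, rose 1.52-fold between tumours (0.60 ± 0.10, adjusted p = 0.00529) and differed by 0.07 ± 0.10 in the dish. Several of these genes, Nqo1 and the Gsta genes among them, are also known NRF2 targets.

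The cytosolic complex that holds AHR was followed through 4 genes. None of these was called in the dish by limma, with 1 higher and 1 lower at an unadjusted p below 0.05, and 1 was called higher with the slide as a block. Between tumours Ptges3, which encodes p23, rose 1.76-fold in Keap1 null (0.82 ± 0.12, adjusted p = 0.00318), a call lost without scaling (0.59, limma adjusted p = 0.0632); 3 of the 4 were called higher with the slide as a block. The median of the 4 was 0.34 between tumours and -0.04 in the dish. All 4 fell in tumours against the dish in both lines, for example Hsp90ab1 1.87-fold in Keap1 null and 2.51-fold in WT; all 8 of these calls were also made with median scaling, and 7 with quantile normalisation, while without scaling 6 were. Hsp90ab1 was 3.41-fold lower in Keap1 null and 5.10-fold lower in WT with median scaling, and 1.57-fold lower in WT with quantile normalisation. Of all targets 29.1% fell in tumours against the dish in Keap1 null and 32.2% in WT. Between the genotypes 20.5% of all targets rose and 21.3% fell in tumours, and 11.4% rose and 9.78% fell in the dish. With the slide as a block more of the 22922 targets were called: 11419 between tumours, 5696 of them higher, and 6517 in the dish, 3242 of them higher. The block counts of the lists below stand against these numbers too.

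Among 9 coactivators and corepressors, 3 fell in each genotype comparison and none was called higher by limma (at an unadjusted p below 0.05, 4 were lower in each and 1 was higher in the dish). With the slide as a block 4 fell and 1 rose between tumours, and 3 fell and 1 rose in the dish; without scaling none was called in the dish. Ncoa3, a steroid receptor coactivator, fell 1.40-fold between tumours and 1.56-fold in the dish, where the call was lost without scaling (-0.51, limma adjusted p = 0.189). The list's median log2 difference was 0.05 between tumours and -0.01 in the dish. Of all targets 20.5% rose and 21.3% fell between tumours, and 11.4% rose and 9.78% fell in the dish.

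The relatives of AHR and ARNT in the bHLH-PAS family were tested for 8 of 13 genes. Between tumours 4 rose and 1 fell in Keap1 null, and in the dish 2 rose and 1 fell, with median log2 differences of 0.54 and -0.02. With the slide as a block 6 rose and 1 fell between tumours, and without scaling 1 rose and none fell in the dish. Among all targets 20.5% rose and 21.3% fell between tumours, and 11.4% rose and 9.78% fell in the dish. Arnt2, a second partner for AHR-type factors, read -2.13 and -2.17 in Keap1 null tumours and -5.16 and -4.88 in WT tumours (7.31-fold, 2.87 ± 0.13, adjusted p = 3.83e-05), and it rose 2.75-fold in the dish; normexp gave 3.93-fold between tumours and 1.76-fold in the dish. The clock gene Arntl rose 4.65-fold and its relative Arntl2 2.34-fold between tumours. Sim2, a developmental repressor, fell 4.43-fold there. Epas1, the hypoxia factor HIF-2 alpha that is abundant in endothelium, rose 27.9-fold in tumours against the dish in Keap1 null and 25.3-fold in WT. Median scaling gave 15.3-fold in Keap1 null and 12.5-fold in WT, and the mean over its probes 6.55-fold in Keap1 null and 5.08-fold in WT. The endothelial markers given above were also higher in tumours, and their part in this result was not tested.

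Among 15 genes of the PARP family, the enzyme family of TIPARP, 8 fell and 3 rose in Keap1 null against WT tumours, with a median log2 difference of -0.35, and 2 fell and 1 rose in the dish (3 and 2 with the slide as a block), with a median of 0.12. Without scaling 6 fell and 1 rose between tumours, and none fell and 1 rose in the dish. Among all targets 21.3% fell and 20.5% rose between tumours, and 9.78% fell and 11.4% rose in the dish. The interferon-responsive members Parp14, Parp10, Parp9 and Parp12 fell 5.13-fold, 4.84-fold, 4.35-fold and 3.24-fold between tumours. The growth effect was lower in Keap1 null than in WT for 6 of the 15 by limma and higher for none (7 and none at an unadjusted p below 0.05). It was lower for 17.0% of all targets and higher for 15.8%. Parp14 rose 11-fold in Keap1 null and 67.4-fold in WT tumours over the dish (6.01-fold in Keap1 null and 33.2-fold in WT with median scaling). Macrophage markers were likewise higher in tumours than in the dish, and higher in WT than in Keap1 null tumours. Their part was not tested. Tiparp itself, a member and not on this list, had a genotype difference of 0.03 ± 0.12 in tumours.

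The redox partners and haem enzymes that P450s depend on were tested for 7 genes. Between tumours 4 rose in Keap1 null and none fell (4 and none at an unadjusted p below 0.05 too): Cyb5a, cytochrome b5, 5.32-fold, Pgrmc1 3.21-fold, Cyb5b 1.73-fold, and Por, the P450 reductase, 1.53-fold. Without scaling 2 rose, and the calls of Cyb5b (0.56, limma adjusted p = 0.135) and Por (0.39, adjusted p = 0.281) were lost. In the dish Cyb5a rose 3.79-fold and Alas1, the rate-limiting enzyme of haem synthesis, 1.61-fold; the Alas1 call was lost with median scaling (limma adjusted p = 0.115) and without scaling (0.0603). The list's median was 0.61 between tumours and 0.26 in the dish. Of the whole P450 family, 47 of 80 genes were tested, Cyp1a1 and Cyp1b1 among them. Between tumours 8 rose and 15 fell in Keap1 null, and in the dish 10 rose and 1 fell (13 and 3 with the slide as a block), with medians of -0.26 between tumours and 0.08 in the dish (-0.17 and 0.05 with bounded genes at their bounds). These counts take in every called gene, also where neither group was well above background. The 10 include Cyp7b1, which was well above background in tumours only and so has no measured rise in the dish. Its dish call was lost with normexp (0.24, limma adjusted p = 0.673). Without scaling 3 rose and 19 fell between tumours, quantile normalisation gave 5 and 18 there, and median scaling gave 8 and 4 in the dish. Of all targets 20.5% rose and 21.3% fell between tumours, and 11.4% rose and 9.78% fell in the dish. Cyp19a1, the aromatase, rose 17.3-fold between tumours and Cyp26b1, which degrades retinoic acid, 9.19-fold; normexp gave 4.33-fold for Cyp19a1. Cyp3a13 fell at least 7.19-fold between tumours and at least 27.0-fold in the dish, where Keap1 null arrays were not well above background; with normexp it was 2.51-fold lower between tumours and 5.79-fold lower in the dish, below these bounds.

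**Figure D5:**
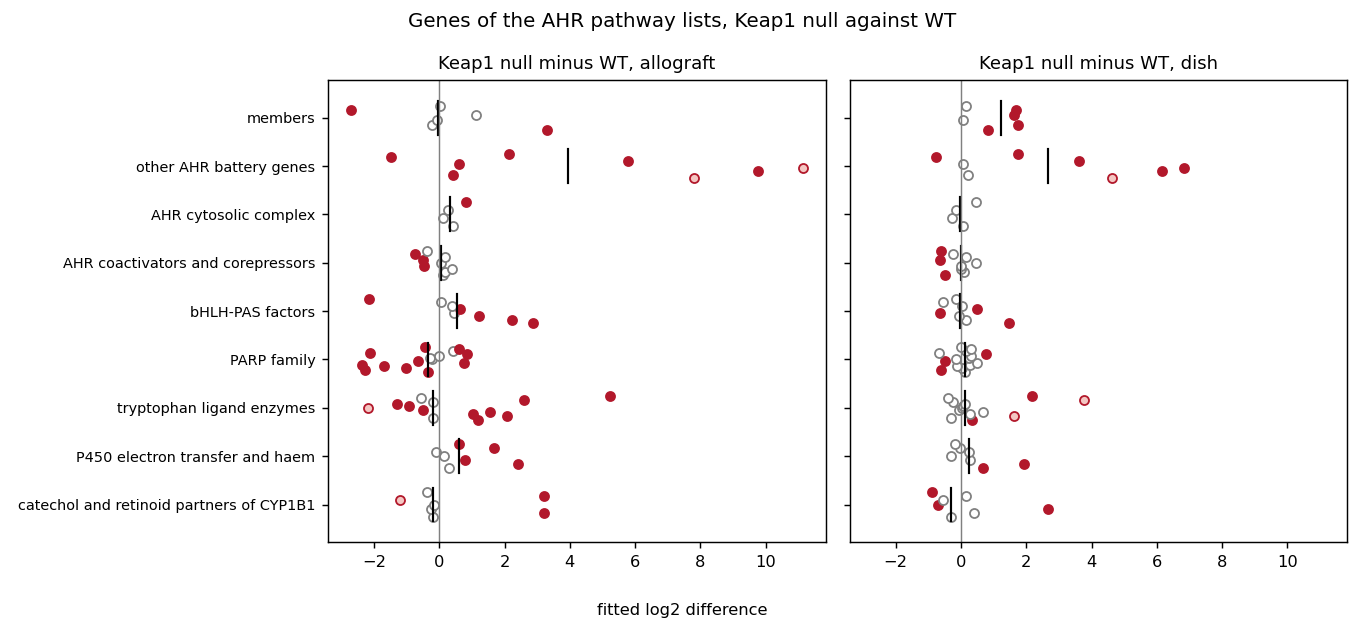
Fitted log2 difference, Keap1 null minus WT (horizontal axis), of each tested gene of the members and 8 lists, in allografts and in the dish; red points were called, pale red ones were called and involve a group not well above background, grey open ones were not called, and bars are list medians. The battery genes reach the highest differences in both panels.

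In tumours against the dish the list counts depended on the scaling. Of all targets 35.8% rose and 29.1% fell in Keap1 null, and 35.8% rose and 32.2% fell in WT. Scaling to the median moves the median of all targets to -0.84 in Keap1 null and -1.04 in WT. All 8 other battery genes rose in the Keap1 null line (6 rose and 1 fell with median scaling), and 3 rose and 3 fell in WT (3 and 5). Cyp2s1, a dioxin-inducible P450, rose 14.1-fold in Keap1 null and 12.2-fold in WT, and Ugt1a6b rose 12.2-fold in Keap1 null and 9.32-fold in WT. With median scaling Cyp2s1 rose 7.71-fold in Keap1 null and 6.00-fold in WT, and Ugt1a6b 6.66-fold in Keap1 null and 4.59-fold in WT. Of the PARP family 8 rose and 3 fell in each line, against 3 and 9 in Keap1 null and 4 and 8 in WT with median scaling; without scaling 5 rose and 3 fell in Keap1 null and 9 rose and none fell in WT. Of the P450 family 14 rose and 14 fell in Keap1 null and 21 rose and 9 fell in WT; with median scaling 11 rose and 24 fell in Keap1 null and 13 rose and 25 fell in WT. Quantile normalisation gave 10 and 22 in Keap1 null and 16 and 23 in WT, no scaling gave 14 and 13 in Keap1 null and 26 and 5 in WT, and normexp gave 12 and 7 in Keap1 null and 17 and 10 in WT. Cyp4b1, an enzyme known from lung, rose at least 17.8-fold in Keap1 null tumours and at least 35-fold in WT tumours; normexp gave 4.89-fold in Keap1 null and 7.70-fold in WT, below these bounds.

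The genes whose levels followed a member most closely were ranked by Pearson's r over the 8 arrays among 14856 other tested genes, with no p-value, since arrays of 4 groups share the same contrasts. Ahr was most like Nrcam (r = 0.998), followed by Uhrf1bp1l, Crem, Ntn4 and Slc35d3. Cyp1b1 was most like the amino acid transporter gene Slc38a4 (r = 0.997), followed by Sfxn4, Map3k12, Cand2 and Hmgn2. Ahrr was most like Nacad (r = 0.991), Tiparp most like Tpgs2 (r = 0.996) and Cyp1a1 most like Ska3 (r = 0.997). Cyp1a1 was not well above background on any tumour array, so its r rests in part on dim signals. Arnt had the lowest best match, Ifngr1, an interferon gamma receptor gene (r = 0.938). That match is for the probe used for the gene, and the other Arnt probe disagreed with it in direction. No member was among the 5 closest genes of another.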

How the data were processed

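Total RNA from dish-grown MEFs and from tumours was labelled with Cy3 (500 ng per sample, per the labels' protocols) and hybridised to 1-colour Agilent mouse arrays, 2 for each of 4 groups. The intensity values used are the processed signals in the scanner files the authors deposited; per the file headers they were made with Agilent Feature Extraction 10.7.3.1, which subtracts background. The deposited series value table held the same intensity values without scaling (largest difference 0.496%). Symbols came from matching the files' RefSeq accessions to a RefSeq table (GRCm38.p6): 26690 of 41174 probes had 1. The file headers name another build, so no array coordinates are given.

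The log2 of the signal minus each array's 75th percentile was taken, control and outlier spots were left out and repeated spots averaged. Tests were run on probes that both arrays of some group flagged as well above background; of several such probes for a gene, the brightest on average stood for it. All 22922 targets were fitted with limma 3.58.1 (R 4.3.3), as 4 group means, 2 growth differences, 2 genotype differences and the difference between growth effects, with Benjamini-Hochberg adjustment and a threshold of 0.05. The fit was tested on simulated data in which the noise of each array was independent. That simulation lacks the correlation between same-numbered arrays described below, so it does not cover it. The genes named are all members, Keap1 and Nfe2l2, and, for each list and comparison, some or all of up to 4 called genes of largest difference (up to 2 of the brightest where none was called); Ugt1a6b, Selenbp1 and Cyp2s1 were also named after their values were seen, as members of the battery list. Some listed genes that this rule would name are not reported here. Precision is limited by 2 arrays per group. The members and all lists were chosen with earlier results of these data known.

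Replicate numbers coincide with the slide in the file headers, and deviations of same-numbered arrays from their group means correlated at 0.25 to 0.43 for all 6 pairs of groups, so the slide was also fitted as a block. Alternatives were median scaling, quantile normalisation, no scaling, normexp, other filters, the mean over probes, the replicate block and leaving out each array.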

Additional observations from a re-analysis of the deposited data

Results flagged for a closer look

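The growth effect (tumour minus dish) differed between the Keap1 null and the WT line, by limma's test of the difference itself, for the genes given here as log2 values, Keap1 null minus WT. Among the members these were Ahr at 2.49, Ahrr at -2.0 and Cyp1b1 at -4.41. Since their values chose the members, these 3 are a description. The lists were chosen with earlier results known, so the values of their genes are a description too. Among the other battery genes they were Gsta2 at 4.32, Gsta1 at 3.61, Aldh3a1 at 3.19 and Nqo1 at 2.18. Among bHLH-PAS genes they were Arntl at 2.07, Sim2 at -2.0, Arnt2 at 1.41 and Arntl2 at 1.28. The coregulators were Crebbp at 0.58 and Ncoa1 at -0.47; both calls were lost with median scaling, without scaling, with normexp and without the filter on dim probes (limma adjusted p 0.0524 to 0.640 for Crebbp and 0.0689 to 0.233 for Ncoa1). The PARP genes were Parp14 at -2.62, Parp10 at -1.66, Parp12 at -1.57 and Parp9 at -1.45. Of the P450 redox genes they were Pgrmc1 at 1.71 and Por at 0.79, and of the P450 family Cyp7b1 at -2.90 and Cyp19a1 at 2.67. Retinoid genes were Cyp26b1 at 3.04, Aldh1a3 at -2.93 and Aldh1a2 at 2.80. Tryptophan genes were Tph1 at 3.06, Kmo at -2.21, Maob at -1.17 (1.23 with normexp) and Kyat1 at -0.97. The Kmo call was lost with normexp (-0.035, limma adjusted p = 0.923) and without the filter on dim probes (0.0620), and the Kyat1 call with median scaling (0.0713). Without scaling the calls of Arnt2 (0.0507), Arntl2 (0.138) and Por (0.435) were lost, and that of Por with quantile normalisation too (0.0688). Normexp gave -1.03 for Ahrr, -3.24 for Cyp1b1, 2.15 for Gsta2, 2.51 for Gsta1, 2.35 for Aldh3a1, -1.47 for Cyp7b1, 1.83 for Cyp19a1, -2.02 for Aldh1a3 and 2.12 for Aldh1a2. Quantile normalisation gave 4.74 for Gsta1 and -3.65 for Cyp7b1, and the mean over its probes 3.76 for Tph1. For Gsta2, Aldh3a1, Aldh1a2, Cyp7b1, Cyp19a1, Tph1, Kmo and Maob at least 1 array of a group in the difference was not well above background, so these sizes depend on dim signals. Kmo was well above background in WT tumours only, Cyp7b1 in tumours only and Aldh3a1 in the Keap1 null line only. With 2 arrays per group no array could be tested as an outlier.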

How the results depend on the processing

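With 2 arrays per group and tumour RNA that includes host cells, small differences are not resolved, and signals near background, Cyp1a1 in tumours and Cyp1a2 throughout, give bounds or no level. Of the values in the text, the number of called targets between Keap1 null and WT dish cells was 4843, against 2620 without scaling, 2856 with normexp on the median spot signal (an alternative chosen after seeing the data) and 2371 to 4451 when any 1 array was left out, with 2371 without either Keap1 null dish array and 2924 and 3206 without WT dish replicate 1 and 2. The number of called members between WT tumours and WT dish cells was 3, and median scaling made it 6. Median scaling also raised the number of called targets in this comparison, from 15600 to 19301 of 22922, so nothing is read from the rise among members. The Ahr difference between WT tumours and WT dish cells turned to -0.62 under the same scaling. Scaling also moved the share of higher calls: for Keap1 null against WT it was 49.0% between tumours and 53.7% in the dish, against 48.4% and 37.3% with median scaling and 30.5% and 76.4% without scaling. For tumours against dish it was 55.2% in Keap1 null and 52.7% in WT, against 27.3% and 25.9% with median scaling and 62.2% and 78.5% without scaling; quantile normalisation gave 44.5% in Keap1 null. For the difference between growth effects it was 48.2%, against 23.3% without scaling. Named genes that turned sign included Ncoa1 and Nrip1 (WT tumours against dish) and Ncoa1, Crebbp, Pgrmc1 and Cyb5a (Keap1 null) with median scaling, Cyb5r3 (WT) and Crebbp (Keap1 null) with quantile normalisation, and Ddc (WT) and Maob (growth effects) with normexp. With the replicate block (the slide) 6517 targets were called between Keap1 null and WT dish cells, 11419 between tumours, 16487 and 17070 between tumour and dish in Keap1 null and WT, and 9380 for the difference between growth effects; among members it added the call of Arnt in WT and changed no other. The cause of these changes was not tested. Normexp on the mean spot signal was planned and not run, because these scanner files do not carry that column.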

Other observations

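Enzymes that make or remove tryptophan-derived AHR ligands were tested for 13 of 14 listed genes. Between Keap1 null and WT tumours 6 rose and 4 fell, and in the dish 4 rose and none fell by limma (4 and 1 at an unadjusted p below 0.05), with a median log2 difference of -0.20 between tumours and 0.13 in the dish (0.05 in the dish with bounded genes at their bounds). With normexp 6 rose and 2 fell between tumours, and 2 rose and none fell in the dish. Among all targets 20.5% rose and 21.3% fell between tumours, and 11.4% rose and 9.78% fell in the dish. Tph1, which hydroxylates tryptophan on the route to serotonin, rose 37.3-fold between tumours and 4.48-fold in the dish, where 1 of 2 WT arrays was well above background; normexp gave 11.7-fold between tumours and 1.58-fold in the dish, and the mean over its probes 2.45-fold in the dish. The amine oxidase gene Maob rose 6.05-fold between tumours and at least 3.67-fold in the dish, where it was not well above background in WT; normexp gave 3.54-fold between tumours and 1.51-fold in the dish, below that bound. Ddc, the aromatic amino acid decarboxylase gene, rose 4.22-fold between tumours and at least 1.38-fold in the dish; normexp gave 1.88-fold and the mean over its probes 7.50-fold between tumours, and the dish call was lost with normexp (0.13, below the bound, limma adjusted p = 0.605) and with the mean over its probes (0.0504). Kmo, the kynurenine hydroxylase gene that macrophages express, fell at least 2.36-fold between tumours, where it was not well above background in Keap1 null. That call was lost with normexp (-0.16, below the bound, limma adjusted p = 0.442). The part of the macrophage markers, which are also lower there, was not tested.

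Genes that share catechol or retinoid substrates with CYP1B1 were tested for all 7 listed. Between Keap1 null and WT tumours 2 rose and 1 fell, and in the dish 1 rose and 2 fell. The median log2 differences were -0.20 and -0.30. Among all targets 20.5% rose and 21.3% fell between tumours, and 11.4% rose and 9.78% fell in the dish. In tumours against the dish 4 rose and 2 fell in each line. Of all targets 35.8% rose and 29.1% fell there in Keap1 null, and 35.8% rose and 32.2% fell in WT. Between tumours Aldh1a2 rose 9.23-fold and Cyp26b1 9.19-fold in Keap1 null and Cyp26a1 fell at least 1.25-fold, with 2 lower with the slide as a block. The Cyp26a1 call was lost with normexp (-0.0076, limma adjusted p = 0.970), which gave 4.20-fold for Aldh1a2. In the dish Aldh1a3, a retinal dehydrogenase gene, rose 6.38-fold in Keap1 null (3.47-fold with normexp), and Rdh10 fell 1.86-fold, a call lost without scaling (-0.77, limma adjusted p = 0.0759). In tumours against the dish, Aldh1a3 rose 13-fold in WT (6.39-fold with median scaling). Cyp26b1 rose 19.0-fold in Keap1 null (10.4-fold with median scaling) and 2.31-fold in WT. The WT call of Cyp26b1 was lost with median scaling (0.19, limma adjusted p = 0.463) and with quantile normalisation (0.30, adjusted p = 0.235).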
